A study of Xiphophorus maculatus with 65 samples.

Results

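Skin of the platyfish *X. maculatus* was compared between fish labelled Sham and fish labelled 0 min, which are 13 of the 65 RNA-Seq libraries of the series, 7 Sham and 6 0 min. The members were taken by the treatment word of their labels, and they fall into 3 blocks, each with its own age and date: JpA fish of 13 months (2 Sham, 2 0 min), JpA fish of 20 months (3 Sham, 2 0 min) and JpB fish of 9 months (2 Sham, 2 0 min). The 0 min skin libraries of 20 months carry the word 0pt where the other blocks have 0min, and were counted as 0 min. All were males of 2 highly inbred lines, their skin was dissected after anaesthesia in an ice bath, and each library was made from a single RNA sample. The labels describe both words as control designations under which no treatment was given, and they give no hour of sacrifice for these 13 fish, so the time of day cannot be told apart from the label. The question was whether skin of the 2 kinds of control fish had the same transcript levels, and whether the 3 blocks gave the same answer.

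Fish skin is a living epithelium of keratinocytes and mucous cells over a dermis that holds pigment cells, scales and nerves. Mucous cells secrete heavily glycosylated proteins, which are folded by chaperones in the endoplasmic reticulum (ER), given sugar chains by the oligosaccharyltransferase and carried on in coated vesicles. Transcripts in skin also follow the circadian clock, in which the clock and bmal proteins switch on the period (*per*) and cryptochrome genes, whose products later block them. Handling, light and wounding each induce short-lived immediate early genes such as those of the fos and nr4a families.

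Total counts per library ran between 27235335 and 95788350, and levels are given as CPM, the count per 1e+06 counts of a library after scaling by the trimmed mean of M values. The 13-month Sham library of fish c had a scaling factor of 0.797, against 0.939 to 1.13 in the other 12 libraries. After each block's mean was removed, the first principal component held 36.8% of the variance, with scores of -109 in 20-month Sham fish z and -54 in 13-month Sham fish c, and the Sham fish d stood apart on the second component (-75.5). Sham fish also varied more among themselves than 0 min fish in both JpA blocks: the median SD of log2 CPM was 0.291 for Sham and 0.127 for 0 min at 13 months, and 0.304 for Sham and 0.157 for 0 min at 20 months, whereas in JpB it was 0.0648 for Sham and 0.109 for 0 min. Results that rest on fish c and z are given below with and without them.

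Of 20920 genes tested with the block in the model, 4 passed an adjusted p of 0.05 (edgeR's quasi-likelihood test), and all 4 were higher in Sham (0.0191% of the genes tested). They were *snrpa*, which encodes a protein of the U1 splicing particle, *rbbp4*, a histone-binding subunit of several chromatin complexes, *hsp90b1*, the HSP90 chaperone of the ER, and the gene model LOC102226155, for which the files and the annotation give no function. All 4 also met the limits the study used for strains, a log2 fold change of at least 1 and an ROC area of at least 0.8. The ROC area here was taken on log2 CPM after each block's mean was removed, a step the study does not describe. It was 1 for all 4 genes, whose groups did not overlap in any block, so it added little as a check. No gene lower in Sham passed at 0.05, although 1814 of the 4590 genes with an unadjusted p below 0.05 were lower in Sham, and DESeq2 called 470 lower and 1361 higher. The calls at 0.05 rest on few fish, since no gene passed without either JpA block, without the abundance trend, or without any 1 of 7 libraries (0 min a and b of 13 months, Sham n and x and 0 min x and z of 20 months, and JpB Sham F).

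The level of *hsp90b1* (chromosome 2, 20400957 to 20407709, *X. maculatus* genome 5.0) was 95.4 and 126 CPM in 13-month Sham fish, against 52.2 and 59.7 CPM in 0 min fish. At 20 months it was 202, 269 and 311 CPM in Sham and 131 and 87.1 CPM in 0 min, and in JpB it was 144 and 178 CPM in Sham and 72.6 and 90.1 CPM in 0 min. Every Sham fish was therefore above every 0 min fish of its own block, with a log2 fold change of 1.09 ± 0.15 (SE, 7 Sham and 6 0 min libraries; adjusted p = 0.0284 by edgeR's quasi-likelihood test).

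*rbbp4* (chromosome 19, 10836673 to 10841594) had 33.5 and 36.3 CPM in 13-month Sham fish and 13.7 and 18.5 CPM in 0 min fish. It had 57.0, 62.6 and 80.6 CPM in 20-month Sham fish and 26.6 and 20.1 CPM in 0 min fish, and 28.4 and 33.5 CPM in JpB Sham fish and 16.5 and 18.4 CPM in 0 min fish. The groups did not overlap in any block, and the log2 fold change was 1.17 ± 0.15 (SE; adjusted p = 0.0284 by edgeR's quasi-likelihood test).

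*snrpa* (chromosome 18, 23689356 to 23692607) was lower in level but further apart, at 15.7 and 14.7 CPM in 13-month Sham fish against 3.87 and 5.18 CPM in 0 min fish. The 20-month Sham fish had 21.5, 20.2 and 35.9 CPM and the 0 min fish 8.29 and 5.31 CPM, and the JpB Sham fish had 7.26 and 11.5 CPM and the 0 min fish 4.71 and 4.24 CPM. Again no 0 min fish reached a Sham fish of its block (log2 fold change 1.60 ± 0.21, SE; adjusted p = 0.0284 by edgeR's quasi-likelihood test).

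LOC102226155 (chromosome 5, 22515493 to 22520489) had the smallest p of all genes. Its levels were 128 and 97.8 CPM in 13-month Sham fish and 49.2 and 58.4 CPM in 0 min fish, 104.4, 116 and 126 CPM in 20-month Sham fish and 49.5 and 46.6 CPM in 0 min fish, and 58.7 and 80.7 CPM in JpB Sham fish and 39.7 and 39.7 CPM in 0 min fish. All 7 Sham fish were higher within their blocks, with a log2 fold change of 1.06 ± 0.12 (SE; adjusted p = 0.0206 by edgeR's quasi-likelihood test).

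**Figure D1:**
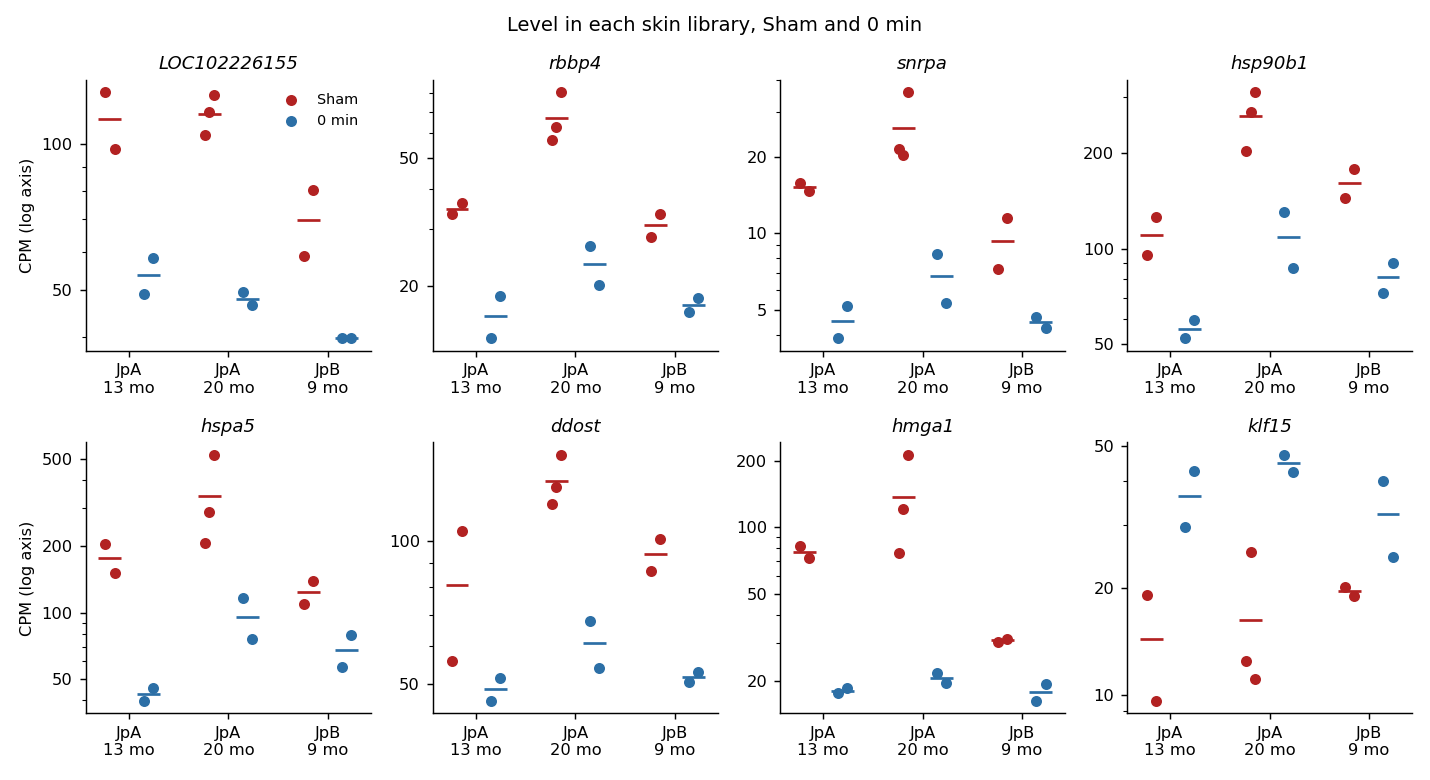
Level of 8 genes in each of the 13 skin libraries, in CPM on a log axis, by block, with Sham (red) left of 0 min (blue); each point is 1 library and each bar the mean of its group. In the first 7 panels every Sham library is above every 0 min library of its block, and for *klf15* every Sham library is lower than every 0 min library of its block; only the genes of the upper row passed an adjusted p of 0.05.

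The limit of 0.05 cuts through a run of nearly tied adjusted p-values: 93 genes were below 0.06 (89 higher and 4 lower in Sham) and 1085 below 0.1. A limit of 0.1 was therefore added after the values had been seen, and is used below to count the members of gene lists. At this limit 871 genes were higher in Sham (4.16% of the genes tested) and 214 lower (1.02%), and 268 had an absolute log2 fold change of 1 or more, 236 of them higher. These counts depend on single libraries, since none of the 1085 passed 0.1 without 0 min fish a of the 13-month block or fish x of the 20-month block, 8 genes passed without fish b and 5 without fish z of 0 min. Without the Sham fish c and z, in contrast, 2675 genes passed 0.1, 1059 of the 1085 among them, and 1602 were higher (7.47%). This setting was not planned, and it left fish d as the only 13-month Sham library.

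Groups that did not overlap in any of the 3 blocks were counted apart from the model. In 977 genes (4.67%) all Sham libraries were above all 0 min libraries of their block, and in 507 genes (2.42%) they were below them in all 3 blocks. Over all genes tested 38.8% had the same sign of change in the 3 blocks, and of the 1085 genes 99.0% did, a share that the choice by the pooled fit itself favours.

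Genes that fold and glycosylate secreted proteins were among those higher in Sham. Of 22 ER chaperones and disulfide isomerases, a list chosen after its members had been seen, 12 were higher at 0.1 and none lower, with a median log2 fold change of 0.54 (0.38, 0.78 and 0.52 at 13 months, at 20 months and in JpB), against -0.00348 for all genes tested. Beside them, 4.16% of all genes tested were higher at 0.1 and 1.02% lower, as for the list counts below. The list of the unfolded protein response, the programme that raises ER folding capacity, had 5 of 13 higher and none lower (median 0.60). Its members overlap with the chaperones, so the lists are not separate counts. Like the chaperones, the lists of translocon and transferase, coat proteins, glycosylation, proteasome, spliceosome and nuclear pore were chosen after their members had been seen. So were those of ribosome biogenesis, ribosomal proteins, synthetases, mitochondrial import, licensing and Hox genes. Their counts describe these libraries and are not independent support. Without Sham c and z, 17 of the 22 chaperones were higher at 0.1, beside 7.47% of all genes tested in that fit.

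*hspa5*, which encodes BiP, the main HSP70 chaperone of the ER, had 204 and 151 CPM in 13-month Sham fish, against 39.6 and 45.6 CPM in 0 min fish. It had 207, 286 and 523 CPM in 20-month Sham fish against 116 and 75.7 CPM in 0 min fish, and 110 and 139 CPM in JpB Sham fish against 56.9 and 79.0 CPM in 0 min fish. The groups did not overlap in any block, and the highest level was that of Sham fish z (log2 fold change 1.60 ± 0.26, SE; adjusted p = 0.0506 by edgeR's quasi-likelihood test). *hyou1*, an HSP110-type exchange factor of BiP, was 1.27 higher on the log2 scale (adjusted p = 0.0549), *manf*, a secreted ER stress factor, 1.27 higher (adjusted p = 0.0506), and the disulfide isomerases *pdia6* and *pdia4* 0.84 (adjusted p = 0.0549) and 0.82 higher (adjusted p = 0.0780), all in the same edgeR fit. In *pdia4* Sham fish c, at 26.9 CPM, lay below both 0 min fish of its block, at 32.5 and 39.7 CPM.

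Through the ER translocon and oligosaccharyltransferase new proteins enter the ER and receive their first sugar chain. Of 29 members 13 were higher at 0.1 and none lower, beside 4.16% and 1.02% of all genes tested (median 0.49, and 0.24, 0.78 and 0.37 in the 13-month, 20-month and JpB blocks). *ddost*, a subunit of the transferase, had 56.0 and 105.2 CPM in 13-month Sham fish against 46.0 and 51.5 CPM in 0 min fish, and 120, 130 and 152 CPM in 20-month Sham fish against 68.0 and 54.1 CPM in 0 min fish. In JpB it had 86.4 and 100.97 CPM in Sham and 50.5 and 52.9 CPM in 0 min, so that no block overlapped (log2 fold change 0.92 ± 0.15, SE; adjusted p = 0.0506 by edgeR's quasi-likelihood test). The catalytic subunit *stt3a*, the subunit *rpn1* and the translocon-associated *ssr4* were 0.69, 0.71 and 1.01 higher on the log2 scale (adjusted p = 0.0563, 0.0549 and 0.0506 in that order in the same edgeR fit).

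Transport out of the ER followed, with 14 of 26 coat proteins and cargo receptors higher at 0.1 and 1 lower (median 0.50). For all genes tested the shares were 4.16% and 1.02%. The cargo receptor *tmed10* was 0.58 higher on the log2 scale and the cycling protein *ergic1* 1.53 higher, at 13.8 and 17.3 CPM in 13-month Sham fish against 3.18 and 3.86 CPM in 0 min fish. Enzymes of nucleotide sugars and mucin-type glycosylation had 11 of 46 higher and none lower (median 0.29, but 0.12 in JpB). *gale*, which interconverts UDP-glucose and UDP-galactose, was 2.28 higher on the log2 scale at 13 months (adjusted p = 0.00327) and 1.25 higher at 20 months (adjusted p = 0.0235), and in JpB its difference was 0.44 with an unadjusted p of 0.0560 (edgeR's quasi-likelihood test, block-specific effects). These p-values use a spread shared by all 3 blocks. With the 13-month and 20-month blocks each fitted alone by the same test, its adjusted p was 0.129 and 0.265. *gnpnat1*, an enzyme of UDP-N-acetylglucosamine synthesis chosen after its values had been seen, had 58.6 and 38.5 CPM in 13-month Sham fish against 3.29 and 4.19 CPM in 0 min fish, but 4.32 and 4.41 CPM in JpB Sham fish against 3.803 and 4.35 CPM in 0 min fish.

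The only marker of keratinocytes and mucous cells to pass 0.1 was *agr2*, a disulfide isomerase of mucus-secreting cells, which was 0.88 higher on the log2 scale in Sham (adjusted p = 0.0762 by edgeR's quasi-likelihood test). That was 16.7% of the list, beside 4.16% of all genes tested. Fewer cells of a type and less RNA per cell cannot be told apart in whole skin. The 6 measured markers of this list had a median log2 fold change of 1.02 at 13 months, the block in which *gale* and *gnpnat1* differed most, and their summed level there was 9570 and 7750 CPM in Sham fish, against 5420 and 5220 CPM in 0 min fish. At 20 months the sums overlapped, at 3580 to 4450 CPM in Sham and 3920 and 5500 CPM in 0 min. In JpB Sham was below, at 4130 and 3840 CPM against 4510 and 5000 CPM in 0 min. The part of these cells in the glycosylation genes was not tested.

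Genes of protein turnover and nuclear RNA handling were higher as well. Of 35 proteasome subunits 17 were higher at 0.1 and none lower (median 0.49), such as the regulatory subunits *psmd2* and *psmc4*, which were 0.69 and 0.66 higher on the log2 scale (adjusted p = 0.060 for both by edgeR's quasi-likelihood test). Of 56 spliceosome genes 22 were higher and 1 lower (median 0.34), and of 45 genes of the nuclear pore and importins 17 were higher and 1 lower (median 0.37). These list counts stand beside 4.16% higher and 1.02% lower among all genes tested. *nup93*, a scaffold protein of the pore, was 0.76 higher, and *sf3b4*, a factor of early spliceosome assembly, was 0.94 higher on the log2 scale.

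*hnrnph1*, which encodes an RNA-binding regulator of splicing, had 53.2 and 41.9 CPM in 13-month Sham fish and 26.5 and 29.2 CPM in 0 min fish, 66.5, 67.9 and 90.9 CPM in 20-month Sham fish and 32.1 and 36.2 CPM in 0 min fish, and 33.0 and 38.0 CPM in JpB Sham fish and 27.4 and 27.3 CPM in 0 min fish. No block overlapped, and the difference was largest at 20 months (log2 fold change 1.14, and 0.77 at 13 months and 0.38 in JpB). The splicing and export factor *sarnp* and the ribosome rescue factor *pelo* were 0.87 and 1.77 higher over the 3 blocks (adjusted p = 0.0506 for both by edgeR's quasi-likelihood test).

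Genes that build ribosomes and genes that make up the ribosome differed in their counts. Of the genes of ribosome biogenesis 24 (22.9% of the list) were higher at 0.1 and none lower (median 0.48, and 0.29, 0.84 and 0.23 in the 13-month, 20-month and JpB blocks), among them the small nucleolar RNA-binding *nop58* and *snu13* and the small subunit processome gene *wdr75*, at 0.89, 0.88 and 1.08 higher on the log2 scale. None of the 70 cytosolic ribosomal protein genes passed 0.1 in either direction, and their median was -0.04 and lay between -0.08 and -0.05 under other scalings. Aminoacyl-tRNA synthetases had 6 of 20 higher and none lower (median 0.34), with *nars* for asparagine 0.85 higher. Mitochondrial protein import had 9 of 31 higher and none lower (median 0.41, but 0.09 at 13 months), and none of 10 genes of oxidative phosphorylation passed 0.1. With 4.16% of all genes tested higher and 1.02% lower, a count of none among 10 genes does not set that list apart.

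Genes of chromatin and DNA replication had positive medians in each block, but most did not pass over the 3 blocks together. *hmga1*, an architectural protein of chromatin, had 81.7 and 72.7 CPM in 13-month Sham fish against 17.8 and 18.6 CPM in 0 min fish. It had 76.0, 121 and 213 CPM in 20-month Sham fish against 21.8 and 19.7 CPM in 0 min fish, and 30.1 and 31.2 CPM in JpB Sham fish against 16.3 and 19.4 CPM in 0 min fish. The 0 min fish of all 3 blocks were within 16.3 to 21.8 CPM, and the Sham fish differed in how far they stood above them (log2 fold change 1.91 ± 0.31, SE; adjusted p = 0.0506 by edgeR's quasi-likelihood test). *ezh2*, the histone methyltransferase of the Polycomb complex to which the rbbp4 protein also belongs, was 0.97 higher on the log2 scale (adjusted p = 0.0506), and *ssrp1* of the histone chaperone FACT 0.70 higher (adjusted p = 0.0549).

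Of 36 genes of replication licensing and histone chaperones 7 were higher at 0.1 and none lower, beside 4.16% and 1.02% of all genes tested (median 0.60, and 0.52, 0.44 and 0.68 in the 13-month, 20-month and JpB blocks). The list of cell division had 1 of 18 higher at 0.1 (5.56%, beside 4.16% of all genes tested), the replication clamp *pcna*. All 18 had a positive fold change and 15 were positive in all 3 blocks (median 0.79). The median of this list was 0.17 without the 13-month Sham fish d. *mcm5*, a subunit of the replicative helicase, had 16.1 CPM in Sham fish c and 55.5 CPM in Sham fish d against 15.5 and 17.6 CPM in 0 min fish at 13 months. It had 50.7, 51.5 and 34.9 CPM in 20-month Sham fish against 40.8 and 29.8 CPM in 0 min fish, so the groups overlapped, and 37.6 and 43.9 CPM in JpB Sham fish against 23.3 and 19.7 CPM in 0 min fish. Without Sham c and z, 28 of the 36 licensing genes and 8 of the 18 division genes were higher at 0.1. In that fit 7.47% of all genes tested were higher, and fish d was the only 13-month Sham library left.

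The 12 genes with a symbol and the smallest p among those lower in Sham had adjusted p-values of 0.0568 to 0.0657 by edgeR's quasi-likelihood test, so none was called at 0.05. *klf15*, a transcription factor that in mammals is induced by glucocorticoids and fasting, had 19.1 and 9.61 CPM in 13-month Sham fish against 29.6 and 42.7 CPM in 0 min fish, and 12.5, 25.2 and 11.1 CPM in 20-month Sham fish against 47.3 and 42.4 CPM in 0 min fish. In JpB it had 20.1 and 19.0 CPM in Sham and 40.0 and 24.4 CPM in 0 min. All Sham fish were below the 0 min fish of their block, with a log2 fold change of -1.19 ± 0.24 (SE; adjusted p = 0.0568).

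*crebrf*, which encodes a regulator of the CREB3 factors, had 103.7 and 93.2 CPM in 13-month Sham fish and 153 and 121 CPM in 0 min fish, 72.8, 102 and 69.8 CPM in 20-month Sham fish and 179 and 181 CPM in 0 min fish, and 131 and 128 CPM in JpB Sham fish and 181 and 164 CPM in 0 min fish. It too did not overlap in any block (log2 fold change -0.71 ± 0.14, SE). Others among the 12 were *rnf44*, *ttbk2* (a kinase of cilium assembly), *unkl*, *hunk*, *mthfsd*, *cops2* (a COP9 signalosome subunit), *fbxo25*, *cnot6l* (a deadenylase of messenger RNA) and *tnfsf11* (the osteoclast factor RANKL), with log2 fold changes between -0.93 and -0.40. In JpB *cnot6l* had the smallest p of the 12 genes, at 89.6 and 91.5 CPM in Sham and 155 and 150 CPM in 0 min.

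**Figure D2:**
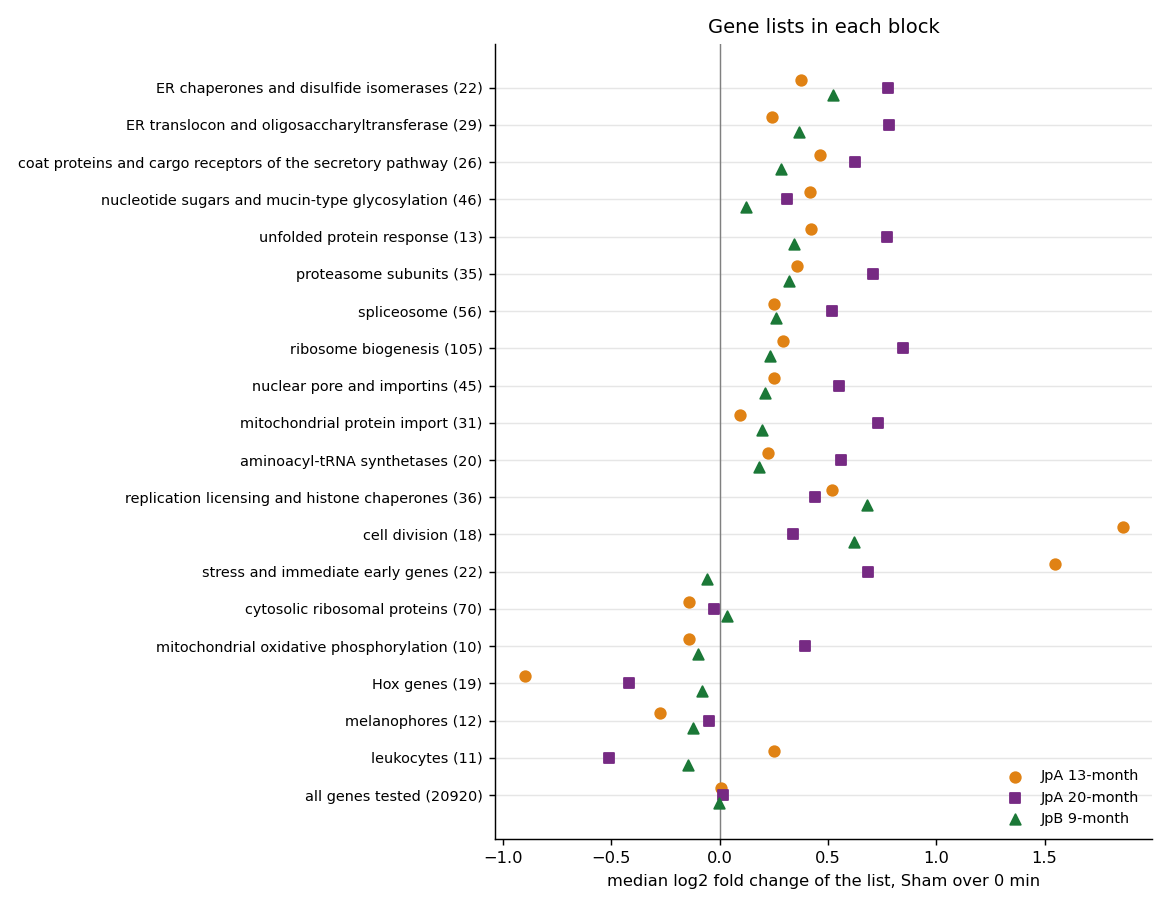
Median log2 fold change, Sham over 0 min, of 19 gene lists and of all genes tested in each block of the joint fit, with the number of genes tested in brackets. The lists of ER folding, secretion, proteasome, splicing, ribosome biogenesis and cell division lie right of 0 in all 3 blocks. Stress and immediate early genes and cell division are far to the right at 13 months. In JpB stress and immediate early genes lie slightly left of 0, and all genes tested lie at 0.

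The blocks were then read one by one in a fit with a label effect for each block. At 13 months 419 genes were higher (2.00%) and 60 lower (0.287%) at an adjusted p of 0.05, and at 20 months 311 were higher (1.49%) and 279 lower (1.33%). No gene passed in JpB (edgeR's quasi-likelihood test), where 597 had an unadjusted p below 0.05 and DESeq2 called 18. The joint fit applies 1 estimate of spread to all blocks, although the spread among JpB fish was smaller. The changes in JpB were smaller as well. Over genes with a mean of 4 CPM or more, the median absolute log2 fold change was 0.149 in JpB, 0.288 at 13 months and 0.362 at 20 months. The part of either in the number of calls was not tested. When JpB was fitted alone, 38 genes were higher (0.180%) and 54 lower (0.255%) at 0.05 in its 2 Sham and 2 0 min libraries, and no gene passed when a JpA block was fitted alone, with 2819 and 3235 genes at an unadjusted p below 0.05. With JpB left out of the joint fit, 1 gene passed at 13 months and 7 at 20 months.

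Among the 38 genes higher in JpB alone (0.180% of the genes tested) were 6 of the 36 licensing genes and 5 of the 18 division genes. There were also 3 of the 29 genes of translocon and transferase, 2 of the 45 of pore and importins and 1 of the 22 ER chaperones. Lists can share members, so these counts are not separate. No member of these lists was among the 54 lower genes (0.255%). *mcm6* rose by 0.97, *mcm2* by 1.09, *mcm4* by 0.85, *mcm5* by 0.92, *pcna* by 0.83 and the histone chaperone *chaf1a* by 0.89 on the log2 scale, all with adjusted p between 0.0451 and 0.0485 in edgeR's quasi-likelihood test of JpB alone. Their unadjusted p for JpB in the joint fit was 0.0965, 0.0975, 0.176, 0.0596, 0.0287 and 0.151 in that order by the same test. The level of *mcm6* was 43.7 and 44.5 CPM in JpB Sham fish and 24.3 and 20.8 CPM in 0 min fish, and that of *mcm2* 54.5 and 51.4 CPM in Sham and 28.0 and 21.9 CPM in 0 min. Of the secretory genes *ddost*, *stt3a*, *rpn1* and *pdia4* rose by 0.86, 0.74, 0.67 and 0.92, and *cnot6l* fell by 0.75.

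Fold changes of the blocks were correlated only weakly across genes. Over all genes tested Pearson's r was 0.256 between the 2 JpA blocks, 0.158 between 13-month JpA and JpB and 0.159 between 20-month JpA and JpB, and over 14709 genes with a mean of 4 CPM or more it was 0.393, 0.200 and 0.312 in that order. Genes are not independent replicates, and these values describe the 13 libraries.

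Calls from 2 blocks were read in the third, whose libraries the call had not used. The 2 JpA blocks together gave 60 genes at an adjusted p of 0.05, 58 higher (0.293%) and 2 lower (0.0101%), and 57 of them (95.0%) had the same sign in JpB, beside 62.0% of all 19784 genes in both fits. The size was smaller: the 58 genes had a median log2 fold change of 0.41 in JpB, and 9 of the 60 had an unadjusted p below 0.05 there in the joint fit and 25 when JpB was fitted alone. The other 2 pairs of blocks gave no call at 0.05. At an unadjusted p of 0.01 in 2 blocks the share with the same sign in the third was 71.3% when the 13-month block was left out, 78.1% for the 20-month block and 77.8% for JpB, beside 60.7%, 64.7% and 62.0% of all genes. The 2 directions differed. Genes higher in 2 blocks had medians of 0.339, 1 and 0.207 in the third, beside 0.148, 0.227 and 0.0747 for all genes higher. Genes lower in 2 blocks had medians of -0.0638, -0.0411 and -0.13, beside -0.0997, -0.189 and -0.0682 for all genes lower. The chosen lower genes thus fell further than all lower genes only in JpB.

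**Figure D3:**
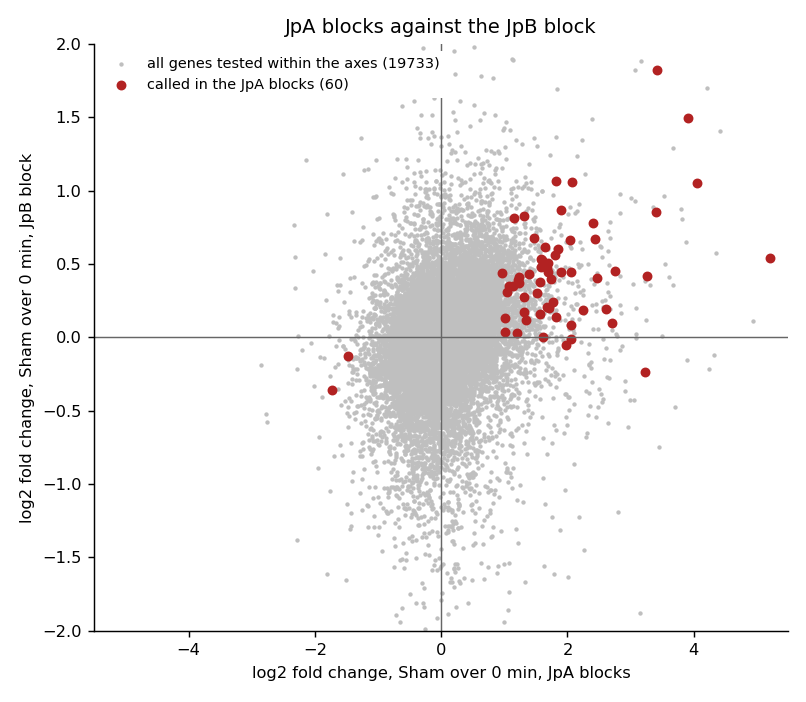
Log2 fold change, Sham over 0 min, in the JpB block against that in the 2 JpA blocks, with 1 point per gene; the 60 genes called in the JpA blocks are red, and 51 of 19784 genes lie outside the axes. Of the red points 57 have the same sign on both axes, and nearly all are closer to 0 in JpB.

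Of the 60 genes 28 have a symbol, among them *rbbp4*, *snrpa*, *hspa5*, *hmga1*, *ezh2*, *gale*, *gnpnat1* and *clock*. *cdkn2b*, which encodes a cyclin-dependent kinase inhibitor and is a candidate modifier of melanoma in *Xiphophorus*, was also one of them. It had 5.57 and 3.73 CPM in 13-month Sham fish against 0.616 and 0.486 CPM in 0 min fish, and 3.55, 2.85 and 6.98 CPM in 20-month Sham fish against 1.04 and 1.14 CPM in 0 min fish. In JpB it had 1.36 and 1.20 CPM in Sham and 0.824 and 1.10 CPM in 0 min, so it did not overlap in any block, while its log2 fold change was 3.07, 2.03 and 0.40 in the 3 blocks in that order.

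A test of the difference between blocks found 3 genes at an adjusted p of 0.05 (0.0143%) and 2488 at an unadjusted p below 0.05. *prkd2*, a protein kinase D, had 259 and 303 CPM in 13-month Sham fish against 57.7 and 46.0 CPM in 0 min fish, but 30.1, 43.2 and 39.1 CPM in 20-month Sham fish against 65.0 and 68.4 CPM in 0 min fish. In JpB its levels were 55.8 and 56.1 CPM in Sham and 60.4 and 68.1 CPM in 0 min. It was thus higher in Sham at 13 months and lower in Sham in the other blocks (log2 fold changes 2.44, -0.83 and -0.20; adjusted p of the difference 0.00878 by edgeR's quasi-likelihood test).

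*rfx2*, a transcription factor of ciliated cells, had 232 and 181 CPM in 13-month Sham fish against 14.0 and 20.2 CPM in 0 min fish, and 8.18 to 14.0 CPM in 20-month Sham fish against 17.4 and 15.7 CPM in 0 min fish. The 13-month Sham fish were more than any other of the 13 libraries, since the JpB fish had 13.2 and 17.3 CPM in Sham and 13.9 and 17.3 CPM in 0 min (adjusted p of the difference 0.00987 by edgeR's quasi-likelihood test). LOC102234606, a gene model with no named function in the annotation, fell by 1.55 on the log2 scale at 20 months (adjusted p = 0.00139), with 34.4, 32.5 and 33.5 CPM in Sham and 94.5 and 101.1 CPM in 0 min, and had log2 fold changes of 0.28 at 13 months and -0.12 in JpB (adjusted p of the difference 0.0404). With the 20-month block fitted alone by the same test, its adjusted p was 0.202. Its rhythm over the hours of the day in other JpA fish is given below.

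The list of 22 stress and immediate early genes had a median log2 fold change of 1.55 at 13 months, 0.68 at 20 months and -0.06 in JpB. At 13 months 3 were higher and 1 lower at 0.05, beside 2.00% and 0.287% of all genes tested. The 3 that rose were *fosb*, a subunit of the AP-1 factor, *ier2* and the phosphatase gene *dusp1*. The test of a difference between blocks did not pass for any of them (adjusted p = 0.218, 0.338 and 0.324 in that order by edgeR's quasi-likelihood test). Fitted alone by the same test, the 13-month block gave adjusted p-values of 0.15, 0.231 and 0.266 in the same order. *fosb* had 626 and 117 CPM in 13-month Sham fish c and d against 1.04 and 4.28 CPM in 0 min fish, while the 9 fish of the other blocks had 0.516 to 7.76 CPM. *dusp1* had 302 and 73.7 CPM in 13-month Sham fish against 34.7 and 44.1 CPM in 0 min fish, and 31.5 and 31.9 CPM in JpB Sham fish against 35.1 and 36.6 CPM in 0 min fish.

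Fish c and z carried much of this signal in their blocks. *fosl1*, another AP-1 subunit, had 487 CPM in Sham c and 37.4 CPM in Sham d, against 5.63 and 5.99 CPM in 0 min fish, and 16.0, 23.0 and 157 CPM in 20-month Sham fish n, x and z, against 6.70 and 4.78 CPM in 0 min fish. All Sham fish of both JpA blocks were nevertheless above the 0 min fish, and in JpB the levels were 6.56 and 7.54 CPM in Sham and 4.24 and 5.21 CPM in 0 min. *nr4a3*, an orphan nuclear receptor, showed the same order, at 110 CPM in c, 30.9 CPM in d and 43.7 CPM in z, and at 5.93 and 8.56 CPM in the other 20-month Sham fish, against 5.29 to 9.12 CPM in all JpA 0 min fish. Without Sham c and z the median of the list was 0.12. *klf2*, a flow-responsive transcription factor, was the one that fell at 13 months, with 200 and 115 CPM in Sham and 361 and 416 CPM in 0 min. Its adjusted p was 0.23 by edgeR's quasi-likelihood test with that block fitted alone.

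Hox genes, which mark position along the body, had a median of -0.51, with values of -0.90, -0.42 and -0.08 in the 13-month, 20-month and JpB blocks. Of 19 genes tested 1 was lower at 0.1 over the 3 blocks (5.26%, beside 1.02% of all genes tested) and none higher. At 13 months 3 were lower at 0.05, where 0.287% of all genes were. There *hoxc11*, *hoxa10* and *hoxc6* fell by 1.38, 1.74 and 0.90 on the log2 scale (adjusted p = 0.0253, 0.0380 and 0.0407 in that order by edgeR's quasi-likelihood test, block-specific effects). With the 13-month block fitted alone by the same test, the adjusted p was 0.174, 0.18 and 0.239 in the same order. *hoxa10* had 1.59 and 2.94 CPM in 13-month Sham fish and 7.52 and 7.63 CPM in 0 min fish, whereas in JpB it had 5.06 and 5.72 CPM in Sham and 6.18 and 6.04 CPM in 0 min. The part of the body from which each skin piece came is not given in the labels used here, and its part in these values was not tested.

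Clock genes differed with the label in the JpA blocks, and not in the same way in both. *clock* itself had 26.7 and 19.2 CPM in 13-month Sham fish against 4.71 and 6.79 CPM in 0 min fish, and 36.5, 40.8 and 54.5 CPM in 20-month Sham fish against 6.88 and 8.48 CPM in 0 min fish. It rose by 2.00 at 13 months (adjusted p = 0.0112) and by 2.52 at 20 months (adjusted p = 0.00426) in edgeR's quasi-likelihood test of block-specific effects. Fitted alone by the same test, the 13-month and 20-month blocks gave *clock* adjusted p-values of 0.146 and 0.202. In JpB it had 11.8 and 12.3 CPM in Sham and 9.61 and 11.6 CPM in 0 min, with no overlap but a log2 fold change of 0.18.

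*per1*, a repressor of the loop, had 20.8, 21.3 and 24.9 CPM in 20-month Sham fish against 98.9 and 136 CPM in 0 min fish, but 145 and 130 CPM in 13-month Sham fish against 168 and 162 CPM in 0 min fish. *per3* had 36.3, 30.1 and 30.0 CPM in 20-month Sham fish against 171 and 223 CPM in 0 min fish, and 161 and 222 CPM in 13-month Sham fish against 267 and 203 CPM in 0 min fish. Both fell at 20 months, by 2.40 and 2.62 on the log2 scale (adjusted p = 0.000987 for both by edgeR's quasi-likelihood test), and their change differed between the 2 JpA blocks (adjusted p = 0.0479 for both, 12 genes or 0.0574% of those tested at 0.05). With the 20-month block fitted alone by the same test, the adjusted p was 0.199 for both. In JpB *per1* had 48.3 and 44.4 CPM in Sham and 79.2 and 53.4 CPM in 0 min, and *per3* had 97.9 and 71.7 CPM in Sham and 111 and 105.4 CPM in 0 min.

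*per2*, which in fish is also induced by light, had 113 and 107 CPM in 13-month Sham fish against 36.7 and 39.8 CPM in 0 min fish. It rose by 1.53 there (adjusted p = 0.0132), and had 33.3, 28.9 and 40.4 CPM in 20-month Sham fish against 18.1 and 27.0 CPM in 0 min fish, and 17.2 and 16.8 CPM in JpB Sham fish against 18.4 and 16.4 CPM in 0 min fish. The kinase *csnk1d*, which marks period proteins for decay, rose by 1.48 at 13 months (adjusted p = 0.0160), and the repressor *nfil3* rose by 1.26 at 20 months (adjusted p = 0.0447; all by edgeR's quasi-likelihood test of block-specific effects). With these blocks each fitted alone by the same test, the adjusted p was 0.129 for *per2*, 0.19 for *csnk1d* and 0.265 for *nfil3*. Of 13 clock genes 1 was higher (*clock*, 7.69%) and 2 lower (*per1* and *per3*, 15.4%) at 0.1 over the 3 blocks, beside 4.16% and 1.02% of all genes tested.

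Libraries of 16 other JpA fish of 24 months, killed at 8 hours of the day with 2 fish each, show the range over those hours; these libraries were scaled apart from the 13. Mean *per1* was 254 CPM at 5 h and 7.71 CPM at 20 h, and mean *per3* 283 CPM at 5 h and 16.1 CPM at 20 h. Mean *clock* was 4.98 CPM at 5 h and 57.2 CPM at 17 h, and mean *per2* 26.4 CPM at 2 h and 212 CPM at 11 h. All Sham and 0 min fish of both JpA blocks had levels of these 4 genes between the lowest and the highest of the 16 fish, which were 6.08 and 304 CPM for *per1*, 13.2 and 313 CPM for *per3*, 3.42 and 60.9 CPM for *clock* and 17.3 and 229 CPM for *per2*.

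**Figure D4:**
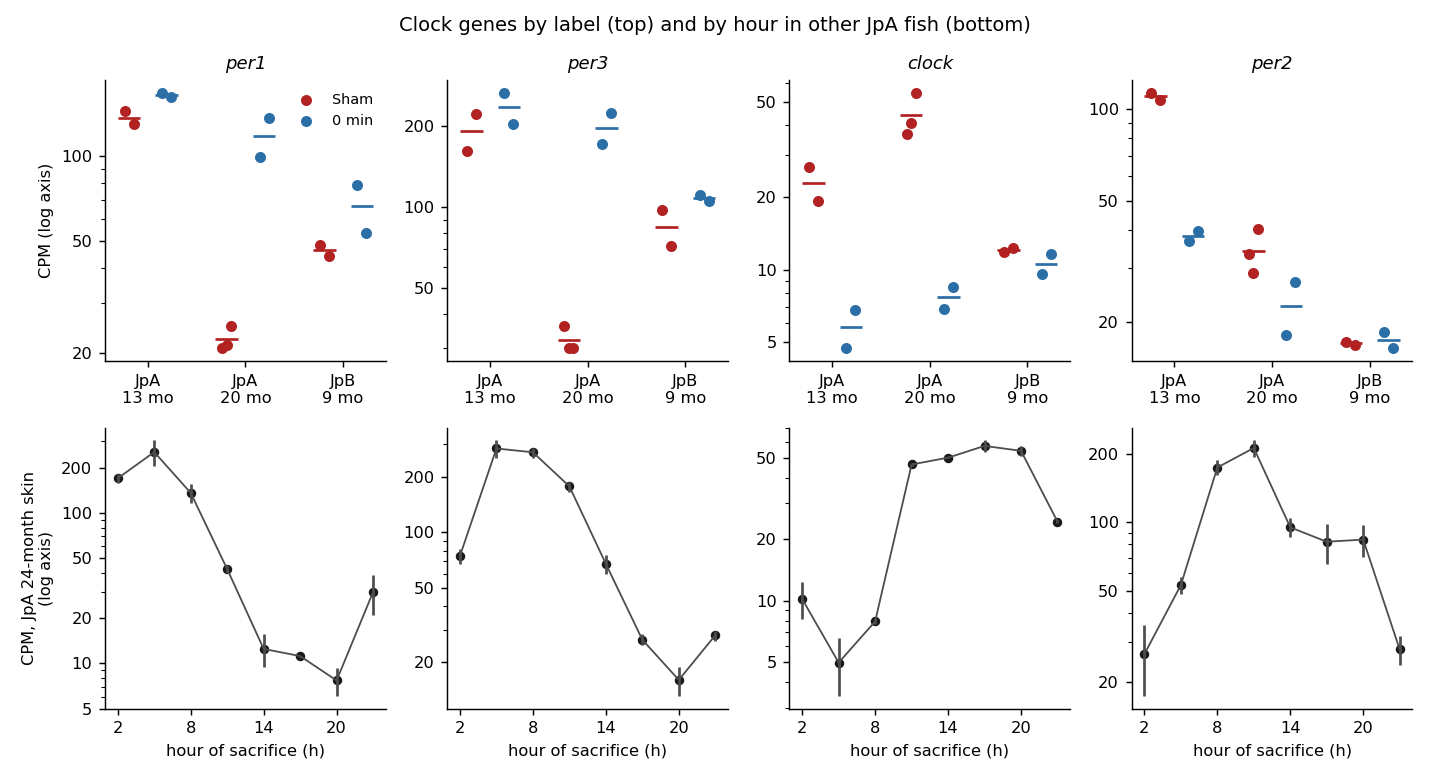
Upper row: level of 4 clock genes in each of the 13 libraries by block, in CPM on a log axis, with Sham (red) left of 0 min (blue) and bars at group means. Lower row: mean CPM of the same genes by hour of sacrifice in 16 other JpA fish of 24 months, with lines from the lower to the higher of 2 fish; *per1* and *per3* are high at 5 h and low at 20 h, and *clock* the reverse.

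By a 24 h cosine, 420 of 19814 genes were rhythmic in those 16 fish (2.12%; edgeR's quasi-likelihood test, adjusted p of 0.05). Rhythmic genes made up 2.76% of the genes higher in Sham at 0.1 (24 of 870), 6.93% of those lower (14 of 202), 5.44% of those called at 13 months (26 of 478) and 5.78% of those called at 20 months (34 of 588). None of the 4 genes called over the 3 blocks passed 0.05 there. By the same test their adjusted p was 0.0539 (LOC102226155), 0.0691 (*hsp90b1*), 0.144 (*snrpa*) and 0.164 (*rbbp4*). Their fitted peaks lay at 16.4, 16.8, 15.6 and 13.9 h in that order. Other genes named above passed there, among them LOC102234606 (adjusted p = 6.49e-06, peak 7.96 h) and *fosb* (0.00778, 7.42 h). So did *nr4a3* (0.0154, 10.6 h), *pdia4* (0.0271, 16.8 h) and *pdia6* (0.0274, 16.0 h) by the same test. Of the 12 genes lower in Sham with the smallest p, *hunk* and *fbxo25* were rhythmic (adjusted p = 0.00346 and 0.0252), with peaks at 0.26 and 1.25 h, and the others were not.

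The rhythmic genes were read by the hour at which they peak, in windows chosen after the values had been seen. The 98 genes that peak between 13 and 19 h had medians of 0.09, 0.72 and 0.19 in the 13-month, 20-month and JpB blocks, and 79.6% of them were higher in Sham at 20 months and 80.6% in JpB, beside 51.0% and 49.3% of all genes tested. Of the 114 genes that peak between 1 and 7 h, 39.5% were higher in Sham at 20 months and 22.8% in JpB, with medians of -0.15 and -0.24. At 20 months 11 genes of the afternoon window were called higher and 0 lower, and of the early window 0 were called higher and 9 lower. Of all genes tested 1.49% were called higher and 1.33% lower in that block.

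The 13-month block followed another order. There the 145 genes that peak between 7 and 13 h were the ones higher in Sham (median 0.33, 67.6% higher beside 50.7% of all genes tested, 16 called higher and 0 lower), and the 62 genes that peak between 19 and 1 h the ones lower (median -0.27, 25.8% higher, 1 called higher and 3 lower). In JpB both windows had medians near 0, at -0.04 and -0.03. At 13 months 2.00% of all genes tested were called higher and 0.287% lower. The part of the hour of sacrifice in the other gene groups was not tested, as no hour is given for these fish.

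**Figure D5:**
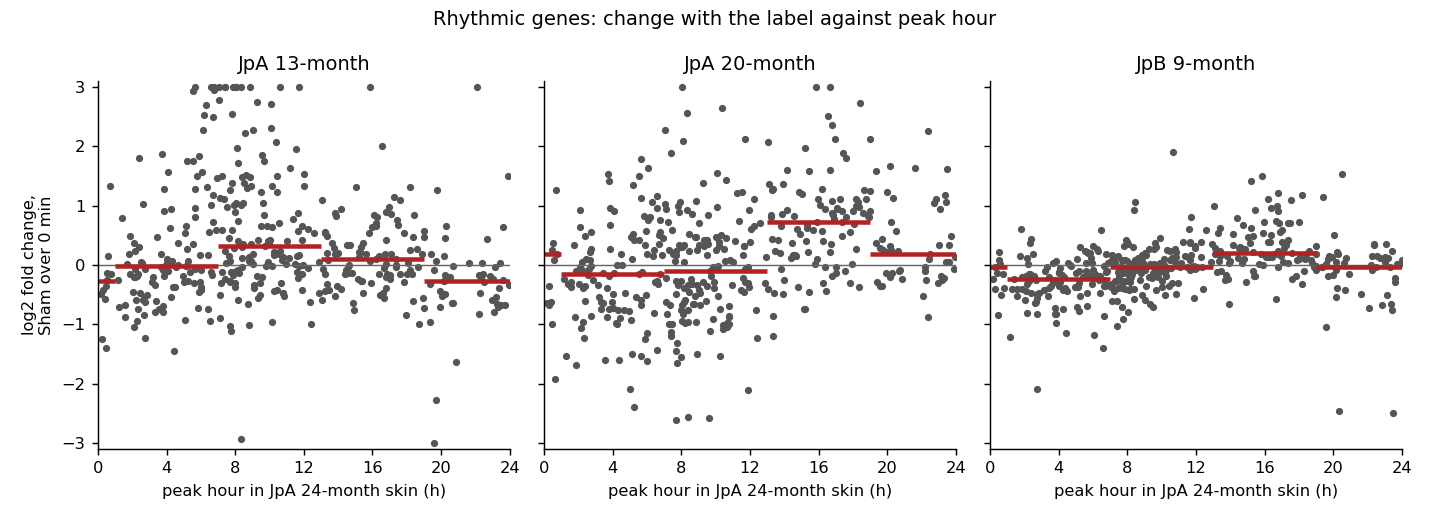
Log2 fold change, Sham over 0 min, of 419 rhythmic genes against their peak hour in JpA skin of 24 months, with 1 panel per block, red lines at the medians of 4 windows, and values beyond 3 drawn at the edge (16, 3 and 0 genes). The line is highest for peaks of 7 to 13 h at 13 months and for peaks of 13 to 19 h at 20 months and in JpB.

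Sterol synthesis had 2 of 18 genes higher at 0.1 (11.1%) and 1 lower (5.56%), beside 4.16% and 1.02% of all genes tested. *insig1*, which holds back sterol-regulated transcription, was 1.09 higher on the log2 scale and *srebf2*, its target factor, 0.48 higher, while *fdft1*, the squalene synthase gene, had a log2 fold change of -1.06. *fdft1* had 22.8 and 22.0 CPM in 13-month Sham fish against 58.1 and 52.4 CPM in 0 min fish, and 23.9, 24.0 and 5.95 CPM in 20-month Sham fish against 54.9 and 45.2 CPM in 0 min fish. The lists of glucocorticoid-responsive genes, UV-responsive repair, interferon and inflammation, and hypoxia and glycolysis had 13, 14, 12 and 11 genes tested, of which 0, 0, 0 and 1 were higher and 1, 0, 0 and 0 lower at 0.1.

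Markers of other cell types were read over the same 13 libraries. Of the lists of melanophores, other pigment cells, muscle, erythrocytes, leukocytes, fibroblasts, scales, endothelium, hepatocytes and nerve, no gene passed 0.1 in edgeR's quasi-likelihood test over the 3 blocks. At that limit 4.16% of all genes tested were higher and 1.02% lower. Within blocks, though, some summed levels did not overlap. Over these lists and that of keratinocytes and mucous cells, 11 in all, Sham was above 0 min in 1 and below it in 4 at 13 months, above in 1 and below in 2 at 20 months, and above in 2 and below in 5 in JpB. No list had Sham on the same side in all 3 blocks. How many of all genes did not overlap within a single block was not counted, so these list counts have no background beside them. Leukocyte genes summed to 1010 to 2240 CPM in 20-month Sham fish against 2320 and 2750 CPM in 0 min fish. They summed to 2740 and 2770 CPM in JpB Sham fish against 3000 and 3070 CPM in 0 min fish, but overlapped at 13 months. Melanophore genes were below only at 13 months, at 136 and 181 CPM in Sham against 191 and 206 CPM in 0 min. Hepatocyte genes were below only in JpB, at 75.4 and 82.5 CPM in Sham against 102 and 118 CPM in 0 min. Muscle genes were below at 13 months, at 235 and 360 CPM in Sham against 383 and 407 CPM in 0 min. They were also below in JpB. The part of these cells in the other results was not tested.

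In liver the same labels were compared in 3 Sham and 5 0 min libraries of 20-month JpA fish (1 Sham, 3 0 min) and 9-month JpB fish (2 Sham, 2 0 min). Fish letters n, x, z, C and E also occur among the skin libraries, so the livers may not come from separate fish. A pair of the JpA 0 min livers is named z and z-r, and the labels do not say whether these are separate fish. Their median absolute difference was 0.457 on the log2 scale, against 0.596 and 0.679 between each of them and liver x. No gene of 17390 passed an adjusted p of 0.05 (0%; edgeR's quasi-likelihood test), with 651 at an unadjusted p below 0.05, and DESeq2 called 20. On simulated counts the edgeR liver fit found 6% of genes changed by 1 and 56% of those changed by 2 on the log2 scale. With z and z-r summed as 1 sample no gene passed either, with 924 at an unadjusted p below 0.05. The 4 genes called in skin had liver log2 fold changes of 1.32 (LOC102226155), 0.53 (*rbbp4*), 0.38 (*snrpa*) and 0.31 (*hsp90b1*), none of them past the threshold.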

How the data were processed

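Counts were deposited by the authors as 1 table of raw read counts for 27242 gene models in 65 libraries. Per the authors' methods, reads of TruSeq libraries sequenced on a HiSeq instrument were mapped with TopHat2 to *X. maculatus* genome 5.0 and counted with featureCounts, with versions and strand setting not given in the sources used here. The strains had been compared with edgeR at an absolute log2 fold change of 1, a false discovery rate of 0.05 and an ROC area of 0.8.

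Here Sham was compared with 0 min in 13 skin libraries with edgeR 4.0.16 in R 4.3.3 (TMM scaling, filterByExpr with a smallest count of 10, glmQLFit and glmQLFTest, block as a factor), with Benjamini-Hochberg adjustment over the tested genes. Block-specific effects and their differences came from 1 fit with a label term per block. Log2 CPM used a prior count of 2. The alternatives used limma 3.58.1 and DESeq2 1.42.0, and figures matplotlib 3.10.9. On simulated counts the skin fit found 56% of 100 genes changed by 1 and 90% of 100 changed by 2 on the log2 scale among 20920 genes, and also called 15 unchanged genes. Each simulation, also that of liver, drew genes independently with a single spread per gene over all libraries. Changes with the skin label were equal in every block, so these shares do not give the power in the real libraries. For a block difference placed in JpB alone, 0% and 17% were found among 21570 genes, with 3 unchanged genes called. That simulation tested 1 term, whereas the test reported takes 2 terms together, so it does not give the power of the test reported.

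Named genes were those called, filled up to 12 per direction by p, up to 4 members of each list by adjusted p and the measured clock genes, plus genes said to be chosen later. Some genes that the rule names are not reported here. The members and lists were chosen with earlier results of these data known. The labels do not say whether the fish shared tanks, so p-values measure the spread between these fish. Fish letters x and z occur under both labels at 20 months. Whether these are the same fish is not known, and the fit reported did not pair them. Sequences were not used here.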

Additional observations from a re-analysis of the deposited data

Results flagged for a closer look

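In all 170 groups of values were examined, nearly all of them block-centred levels of named genes. The rest were scaling factors and scores of the first principal component. Of the 170, 9 held a library whose gap to its nearest neighbour exceeded Dixon's limit, where about 8.5 are expected at 1 in 20. The gap as a share of the range of the 7 Sham libraries was 0.616 for *stt3a* (fish c, 98.2 CPM), 0.680 for *sf3b4* (fish z, 36.8 CPM), 0.608 for *psmd2* (z, 182 CPM) and 0.619 for *ttbk2* (z, 20.4 CPM). It was 0.686 for *fbxo25* (z, 4.48 CPM), 0.569 for *csnk1d* (c, 640 CPM), 0.643 for *dusp1* (c, 302 CPM), 0.579 for *klf2* (d, 115 CPM) and 0.672 for *fdft1* (z, 5.95 CPM). In each case the library is one of the 3 JpA Sham fish c, d and z that also stood apart on the principal components. JpB Sham fish spread less (median SD 0.0648, against 0.291 and 0.304 in the JpA blocks), so extremes fall more readily in JpA.

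The label effect differed between blocks in 3 genes by the interaction terms of edgeR's quasi-likelihood test, at adjusted p-values of 0.00987 for *rfx2*, 0.00878 for *prkd2* and 0.0404 for LOC102234606.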

How the results depend on the processing

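The count of 4 skin genes at an adjusted p of 0.05 stayed within 4 and 5 under other scalings and a filter of 1 CPM, and moved widely otherwise. It was 39 without a filter, 118 with limma-voom, 1529 with voom sample weights, 1831 with DESeq2, 0 without the abundance trend and 0 with the block left out. It was 0 without the 13-month block, 0 without the 20-month block, 60 without JpB (JpA blocks only), 0 and 0 in the JpA blocks alone and 92 in JpB alone. Leaving out 1 library gave 0 to 486 genes (486 without Sham z, 202 without Sham c, 94 without Sham E), and leaving out Sham c and z together gave 1215. At the limit of 0.1 the 1085 genes became 2989 with DESeq2, 0 with the block left out, 0 without either JpA block, 714 without JpB, 0 and 0 in the JpA blocks alone, 490 in JpB alone and 0 to 1582 with 1 library left out. Of the 1085 genes, all that were tested kept their sign under the other scalings, filters and tools and with each library left out. Their choice by the fit reported, from the same libraries, itself favours this. Of the genes each setting itself called at 0.1, 80.3% were higher in the fit reported, 66.0% with DESeq2, 70.9% with upper quartile scaling, 59.9% without Sham c and z, 64.6% without Sham c, 58.5% with sample weights and 42.4% in JpB alone (208 higher and 282 lower).

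At the study's limits the 4 genes became 25 without a filter, 50 with limma-voom, 159 with sample weights, 392 with DESeq2, 59 without JpB, 54 in JpB alone, 137 without Sham c and z, 0 to 87 with 1 library left out, and 0 with no block, no abundance trend, without either JpA block or in a JpA block alone. Fish letters x and z as a replicate block gave 0 genes at 0.05, 0 at the study's limits and 500 at 0.1. Deviations of the same letter were correlated at -0.259 (x) and -0.141 (z). The deviations of the 0 min fish x and z mirror each other, as each is taken from their common mean. These values therefore cannot tell whether a letter names the same fish under both labels. The letters were not taken as pairs in the fit reported.

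Within the 13-month block the 479 genes became 305 by library size alone, 1378 without the 20-month block, 1 without JpB, 0 alone, 1678 with DESeq2 and 0 to 1778 with 1 library left out. The 590 genes of 20 months became 223, 270 without the 13-month block, 7, 0, 2914 and 6 to 1236 in the same order, and JpB gave 92 alone and 18 with DESeq2. The 3 genes that differed between blocks became 0 to 130 with 1 library left out. The share read in the third block was 77.8% at an unadjusted p of 0.01, 98 genes were rhythmic at an adjusted p of 0.01, and liver gave 27 genes in JpB alone, 20 with DESeq2 and 0 to 27 with 1 library left out. The causes were not tested.

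Log2 fold changes over the 3 blocks turned sign for *per2* in JpB alone (-0.0344), *nfil3* at 13 months alone (-0.0551), *fosb* (-0.12), *ier2* (-0.13) and *dusp1* (-0.18) in JpB alone, and *hoxc6* at 20 months alone (0.0217). *klf2* was 0.12 without the 13-month block, 0.34 in JpB alone and 0.0310 with sample weights. *rfx2* was -0.37 without the 13-month block, -0.65 at 20 months alone and -0.0358 in JpB alone. *prkd2* was -0.55, -0.84 and -0.20 under the same settings, -0.0406 with sample weights and -0.0817 to 0.460 with 1 library left out, negative without 0 min a and without 0 min b. LOC102234606 was 0.0737 without the 20-month block and 0.26 at 13 months alone. List medians stayed within 0.1 of their value under other scalings. Depth of at least 27235335 counts lay behind every skin library compared.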
